A study of Mus musculus with 19 samples.

Results

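Granulocyte macrophage progenitors (GMP) were compared with the stem and multipotent progenitor cells at the top of the blood cell hierarchy in adult mouse bone marrow. The comparison used 5 of the 19 arrays of the series, all of those titled with either population: 2 of GMP and 3 of stem and multipotent cells. The latter were sorted as lineage negative, c-Kit positive and Sca-1 positive cells, the gate abbreviated LSK. GMP were sorted from the lineage negative, c-Kit positive, Sca-1 negative fraction as CD16/32 high and CD34 high cells. Both came from C57BL/6 mice aged 8 to 12 weeks. The other arrays hold common myeloid progenitors (CMP), megakaryocyte erythroid progenitors, early and late erythroblasts and granulocytes (GR). Whether replicates came from separate animals is not labelled, and the p-values can only reflect how far these arrays lie apart, technical spread included.

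The LSK gate holds the long-lived stem cells together with multipotent progenitors, some of which already transcribe lymphoid genes. GMP arise from multipotent cells largely through the CMP stage and give rise to neutrophils, monocytes and other myeloid cells. Commitment to this path is known to run through the transcription factors PU.1, C/EBPα and, for neutrophils, C/EBPε and GFI1, while IRF8 favours monocytes. GMP divide often and make the proteases and peroxidase that are stored in primary granules, whereas many stem cells rest outside the cell cycle.

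Each array was a single-colour mouse array with 62543 spots, and levels are given as the log2 of the scanner's processed signal minus the log2 of that array's 75th percentile, so that 0 is the 75th percentile. The 75th percentile lay between 320 and 571 intensity units on the LSK arrays and at 320 and 266 on the GMP arrays. The share of spots well above background was 58.4% to 66.3% on the LSK arrays and 49.8% and 49.5% on the GMP arrays, so fewer probes could be measured in GMP. Over 23654 features the arrays of one population correlated at 0.981 to 0.988 for LSK and at 0.990 for GMP, and LSK with GMP arrays at 0.928 to 0.937. GMP replicate 1 shared a slide with LSK replicate 2, and GMP replicate 2 shared another with LSK replicate 3.

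Of the genes behind the gates, both low-affinity Fc receptor genes were higher in GMP and Ly6a, which encodes Sca-1, did not separate the populations. The level of Fcgr3, which encodes CD16, was 0.68, 0.58 and 0.38 on the LSK arrays and 4.28 and 3.94 on the GMP arrays, a difference of 3.57 ± 0.37 (SE), adjusted p = 2.52e-06 in limma's moderated test. Fcgr2b, which encodes CD32, differed by 2.80 ± 0.34 (SE). GMP thus lay above every LSK array for both receptors. The level of Ly6a was 3.83, 3.49 and 3.44 on the LSK arrays and 3.29 and 3.38 on the GMP arrays, with both GMP arrays just below the lowest LSK array. The difference, -0.25 ± 0.35 (SE), adjusted p = 0.606, did not pass, and the sort of GMP as Sca-1 negative cells is not seen in this transcript. In CMP, sorted as Sca-1 negative too, the mean Ly6a level was -0.03, and GMP lay 3.36 above it (adjusted p = 6.31e-06). Kit, the stem cell factor receptor, was 0.77 lower in GMP on the log2 scale, a call lost under spike-in scaling and without GMP replicate 2. Cd34 read 7.81, 7.77 and 7.86 in LSK and 6.98 and 6.96 in GMP, lower on both GMP arrays, with an adjusted p of 0.0612.

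Of 23682 features well above background on every array of either population, 10375 (43.8%) differed at an adjusted p under 0.05. GMP were higher for 6566 of them (27.7%) and lower for 3809 (16.1%). With at least a 2-fold difference as well, 2575 features (10.9%) were higher and 2806 (11.8%) lower. Among the 20045 features well above background on all 5 arrays, 2409 were called at least 2-fold higher in GMP and 1386 at least 2-fold lower. At 4-fold or more these counts were 405 and 568. Which direction led at 2-fold thus depended on features not measured on every array. Well above background on all LSK arrays and on no GMP array were 2170 features, 1099 of them named genes, against 46 and 28 the other way round. The arrays set their own zero, and the share of calls that were higher in GMP was 63.3% here, 48.2% after quantile normalization, 27.5% when the percentile was taken over probes detected on all arrays, 15.8% after spike-in scaling, 70.6% after normexp background correction and 69.3% on the authors' values. The median over all features tested was 0.22 here and moved to 0.08, -0.26 and -0.16 under the first 3 of these, so list medians are to be read against it. A lower level in sorted cells can mean fewer cells that carry a transcript or less of it per cell, and the arrays cannot tell these apart.

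**Figure D1:**
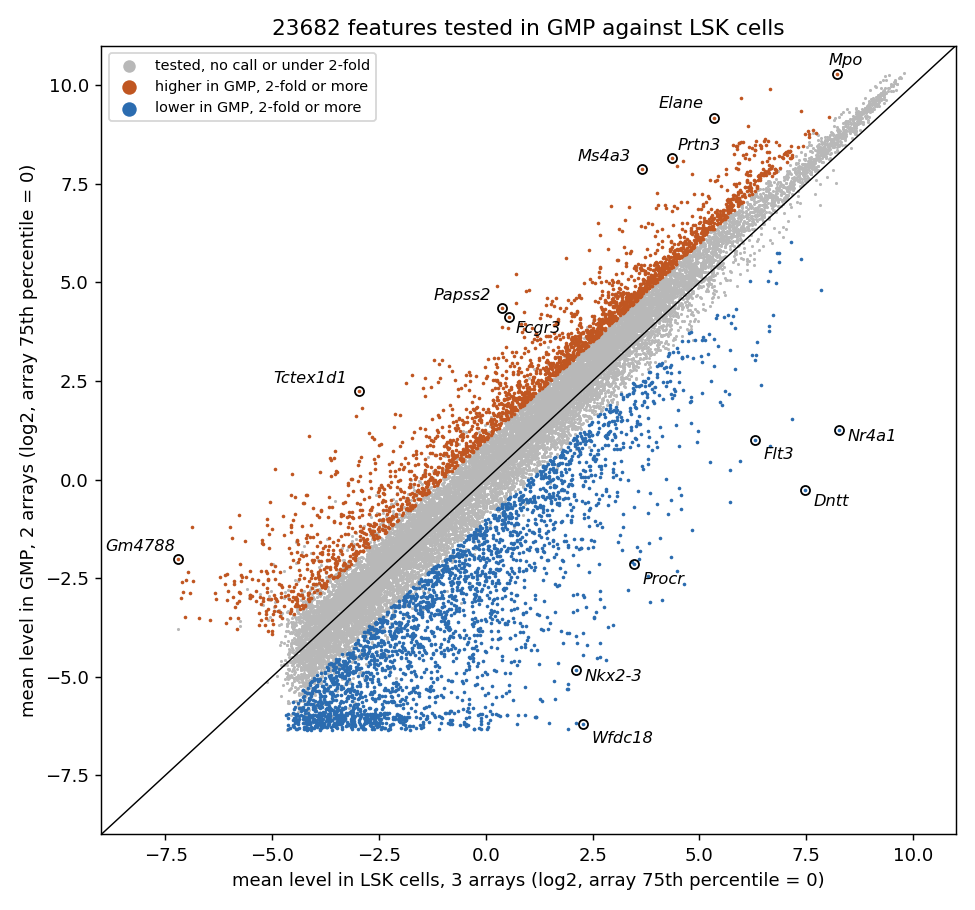
Mean level of each of the 23682 features tested in LSK cells (x axis, 3 arrays) and in GMP (y axis, 2 arrays), on the log2 scale with each array's 75th percentile at 0; the line marks equal levels. Orange marks the 2575 features called at least 2-fold higher in GMP and blue the 2806 called at least 2-fold lower; 2170 features plotted here were well above background on all LSK arrays and on no GMP array, so their GMP values are at or near background.

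Genes of stem and multipotent cells were lower in GMP almost throughout. Among named genes 32.5% of those tested were called higher and 19.1% lower, and of the 32 stem and multipotent cell genes 29 were lower and none was higher, with a median difference of -2.84 (-2.44 with the 6 genes not above background in GMP at their bound). The median was -1.72 after normexp correction and -2.03 on the authors' values. Procr, the endothelial protein C receptor that marks stem cells, read 3.69, 3.11 and 3.60 on the LSK arrays and -2.32 and -1.97 on the GMP arrays. No GMP array came near an LSK array, and the difference was -5.61 ± 0.28 (SE), adjusted p = 2.29e-09.

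The transcription factors of this group were lower as well. Hlf, a bZIP factor of stem cells, read 4.50, 4.65 and 4.44 on the LSK arrays and -0.03 and -0.38 on the GMP arrays, so that the GMP arrays lay near the 75th percentile and the LSK arrays far above it (-4.74 ± 0.43 (SE), adjusted p = 6.31e-07). Meis1, a homeodomain partner of HOX proteins, was 5.51, 5.58 and 5.38 in LSK and 2.15 and 1.79 in GMP, a difference of -3.52 ± 0.25 (SE). Gata2, a zinc finger factor needed by stem cells, was lower by a smaller step, 3.27, 3.15 and 3.05 against 1.58 and 1.39 (-1.67 ± 0.21 (SE), adjusted p = 1.73e-05). Mecom, a zinc finger factor of stem cells, was not well above background on any GMP array and was at least 1.87-fold higher in LSK, a call lost after normexp correction and on the authors' values. Mn1, a transcriptional coactivator, was at least 61.2-fold higher in LSK.

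Surface receptors and their ligands made up much of the rest. Esam, a junctional adhesion molecule, was at least 49.3-fold higher in LSK. Trpc6, a cation channel, was at least 22.7-fold and Slamf1, which encodes CD150, at least 3.72-fold higher. Angpt1, the ligand angiopoietin 1, differed by -3.74 and Tek, its receptor, by -2.29, with Tek well above background on 1 of 2 GMP arrays. Robo4, a guidance receptor of stem cells and endothelium, read 3.85, 3.78 and 3.80 on the LSK arrays and -1.88 and -3.01 on the GMP arrays. Its GMP arrays were both lower but far apart. The difference was -6.26 ± 1.66 (SE), adjusted p = 0.00674, where the SE also holds the spread within the other populations. Robo4 lost its call without GMP replicate 2. Among the 3 members that were not called were Bcl6, a transcriptional repressor, at -0.14 and Eya1, a transcriptional coactivator, at 0.39.

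Hox genes, which pattern the body axis and of which the A cluster and part of the B cluster are active in stem cells, followed the same direction. Of 20 on the array 14 could be tested, 11 were lower in GMP and none higher, with a median of -2.60 (-2.02 with 8 genes at their bound). After normexp correction the median was -0.95, and on the authors' values -0.68. Hoxa9, a self-renewal factor, read 0.998, 1.62 and 1.12 in LSK and -1.12 and -1.40 in GMP (-2.51 ± 0.29 (SE), adjusted p = 6.2e-06). Hoxa7 read 3.89, 3.79 and 3.99 in LSK and 2.49 and 2.43 in GMP, and fell by 1.43 with no overlap. Hoxa10 was at least 13.3-fold higher in LSK, Hoxb2 at least 6.44-fold and Hoxb5, a marker of long-term stem cells, at least 4-fold. Hoxb4 was not called, at 0.19 (adjusted p = 0.698).

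**Figure D2:**
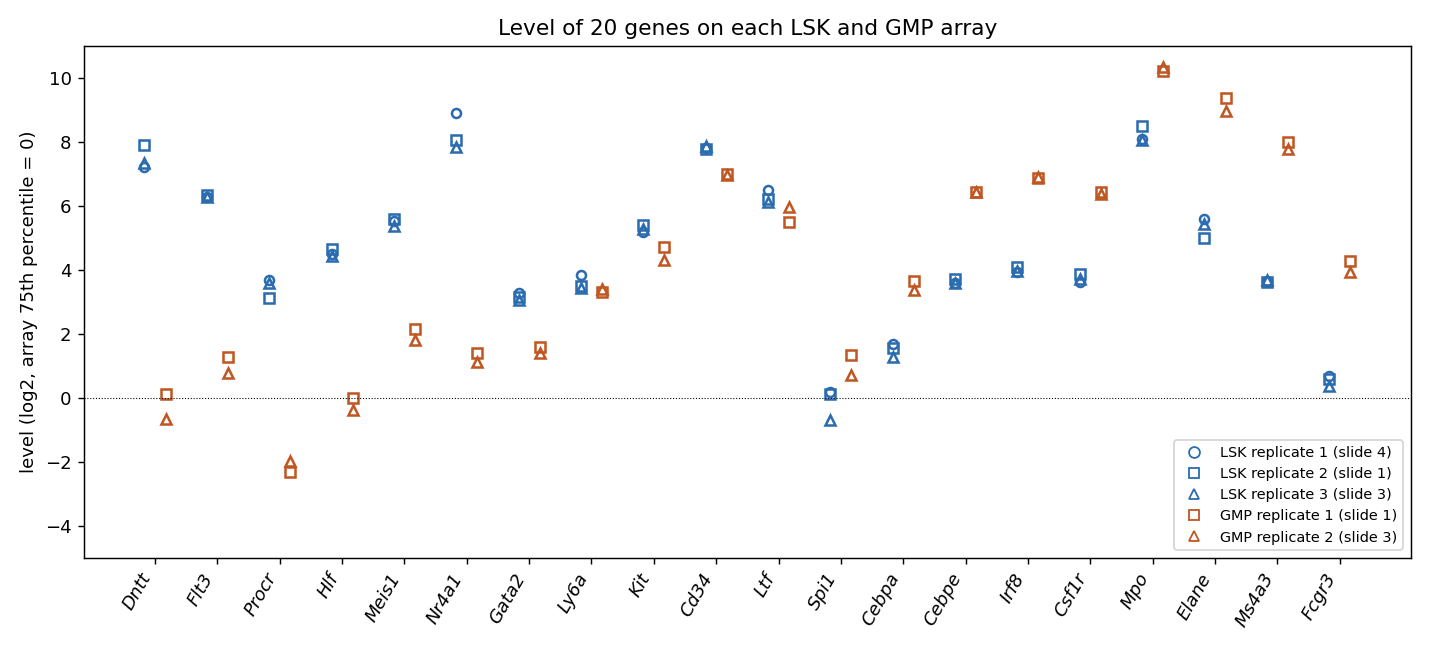
Level of 20 genes on each of the 3 LSK arrays (blue) and 2 GMP arrays (orange), log2 with the array's 75th percentile at 0; marker shapes give the replicate and its slide. Dntt, Flt3, Procr, Hlf and Nr4a1 are separated by more than 4 log2 units, Ly6a, Ltf and Spi1 by 1.15 or less, and Elane, Ms4a3 and Fcgr3 stand more than 3 units higher on both GMP arrays.

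Lymphoid priming genes were lower in GMP by a median close to that of the stem cell genes. Of 19 tested, 15 were lower and 1 was higher, with a median of -2.82 (-2.36 with 4 genes at their bound). How close the lists lay depended on the processing. The lymphoid median was -2.06 after normexp correction and -2.09 by the mean of all probes, against -1.72 and -2.71 for the stem cell genes. Dntt, the terminal transferase that adds bases to antigen receptor joints, showed the largest fall among genes measured in both populations, from 7.22, 7.90 and 7.34 in LSK to 0.13 and -0.68 in GMP (-7.76 ± 0.37 (SE), adjusted p = 1.05e-09). Flt3, the receptor tyrosine kinase of multipotent and lymphoid-primed progenitors, read 6.27, 6.34 and 6.28 on the LSK arrays and 1.26 and 0.76 on the GMP arrays, a difference of -5.29 ± 0.34 (SE), its other probe giving -4.17. Both genes were bright on every LSK array and close to the 75th percentile on the GMP arrays.

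Il7r, the interleukin-7 receptor chain, was at least 11.8-fold higher in LSK and Rag1, a subunit of the V(D)J recombinase, at least 4.74-fold. Ltb, which encodes lymphotoxin β, read 5.91, 5.58 and 5.67 in LSK and 0.20 and 0.30 in GMP. The homing receptors Ccr9 and Ccr7 differed by -5.16 and -4.99, and Satb1, a chromatin organiser of lymphoid cells, by -1.92. For Ccr7 only 1 of the 2 GMP arrays rose above background. The one member called higher was Notch1 at 2.29, where a second probe gave -0.98, so its direction depends on the probe.

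Several single genes, in the lists or outside them and in part named after their values were seen, also fell far. Nr4a1, an orphan nuclear receptor already counted among the stem and multipotent cell genes, read 8.89, 8.04 and 7.85 on the LSK arrays and 1.41 and 1.12 on the GMP arrays (-7.00 ± 0.59 (SE), adjusted p = 3.46e-07). Egr1, a zinc finger factor, read 7.01, 6.43 and 6.51 in LSK and 0.99 and 0.70 in GMP, and its relative Egr2 fell by 4.44. LSK replicate 1 was the highest array for Nr4a1 and Egr1, yet the other LSK arrays also lay more than 5 units above both GMP arrays. Socs3, a feedback inhibitor of cytokine signalling, differed by -6.29 ± 0.43 (SE), Rgs1, which damps G protein signals, by -6.10 ± 0.53 and Btg2, an antiproliferative gene, by -3.13 ± 0.19.

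Adhesion and homing receptors were called about as often as named genes in general. Of 28 tested, 8 were higher (5 without GMP replicate 1) and 6 lower in GMP, and their median of 0.32 turned to -0.16 over detected probes and -0.05 under spike-in scaling. F11r, the junctional adhesion molecule A, went from 2.63, 2.50 and 2.47 in LSK to -3.24 and -3.75 in GMP (-6.03 ± 0.23 (SE), adjusted p = 1.59e-10). Emcn, endomucin, was at least 18.9-fold higher in LSK, and S1pr1, the receptor by which cells sense sphingosine phosphate, differed by -4.10, measured above background on 1 of 2 GMP arrays. The chemokine receptors Ccr2 and Cx3cr1, which guide monocytes, rose by 2.68 and 2.53, Cxcr4, the receptor for CXCL12, by 1.72, and Prom1, which encodes CD133, by 3.49.

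Genes of the megakaryocyte and erythroid branches were lower in GMP. Of 20 megakaryocyte and platelet genes tested, 15 were lower and none higher (median -2.31, or -1.45 after normexp correction). Mmrn1, a multimerin of platelet granules, was at least 97.8-fold higher in LSK and Gp1ba, a subunit of the von Willebrand factor receptor, at least 5.1-fold. Vwf, its ligand, read 1.31, 1.35 and 1.25 in LSK and -0.95 and -1.99 in GMP (-2.77 ± 0.24 (SE), adjusted p = 4.72e-07), and Pf4, platelet factor 4, 3.11, 2.89 and 3.06 and 1.73 and 0.48 (-1.91 ± 0.37 (SE), adjusted p = 0.000727). The groups did not overlap for either gene. Cd9, Clec1b, Itgb3, Itga2b and Fli1 were not called.

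Of 25 erythroid genes 19 were lower and 1 was higher, with a median of -0.89. Without GMP replicate 2 the count lower was 8 and the median -0.56, and spike-in scaling called 7 lower; after normexp correction the median was -0.51. Car2, a carbonic anhydrase, fell by 4.04 and Zfpm1, the cofactor of GATA1, by 3.05. Gfi1b, a repressor of both branches, read 2.25, 2.82 and 2.59 on the LSK arrays and 0.33 and -0.10 on the GMP arrays, a difference of -2.44 ± 0.26 (SE). The defining factors differed little: Gata1 was 1.83, 1.99 and 1.72 in LSK and 1.38 and 0.99 in GMP (-0.66 ± 0.22 (SE), adjusted p = 0.0231) and Klf1 differed by -0.79 ± 0.30 (SE). Spike-in scaling and the fit without GMP replicate 2 ended the calls of both. In CMP both genes stood far higher, and the GMP minus CMP differences were -4.20 for Gata1 and -5.13 for Klf1 (adjusted p = 3.79e-09 and 1.42e-08). Tfrc, the transferrin receptor of dividing cells, was the one member that rose, by 1.45.

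Among myeloid transcription factors 10 of 25 were higher in GMP and 4 lower (median 0.88, or 0.20 after quantile normalization). These shares were near the 32.5% and 19.1% of named genes in general. Irf8, the monocyte and dendritic cell factor, read 3.94, 4.07 and 3.97 on the LSK arrays and 6.87 and 6.89 on the GMP arrays, a difference of 2.88 ± 0.25 (SE), adjusted p = 3.91e-07. Cebpe, the neutrophil C/EBP factor, read 3.59, 3.72 and 3.60 in LSK and 6.44 and 6.43 in GMP (2.80 ± 0.41 (SE), adjusted p = 6.3e-05). For both genes the arrays of each population lay close together and far from those of the other. Cebpd, another C/EBP factor, rose by 2.47, Tfec, a bHLH factor of macrophages, by 2.51 and Zeb2, a zinc finger repressor, by 1.70 or, by its other probe, 0.62.

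Cebpa, which GMP formation requires, read 1.68, 1.56 and 1.26 in LSK and 3.64 and 3.38 in GMP. It was higher on both GMP arrays, but its call (2.01 ± 0.58 (SE), adjusted p = 0.0116) did not hold under quantile normalization, the percentile over detected probes, spike-in scaling or the fit without GMP replicate 1, with adjusted p-values of 0.0555 to 0.114. Gfi1, a repressor of the granulocyte path, rose by 1.92 ± 0.26 (SE) and Cebpb by 0.95 ± 0.22, both lost under spike-in scaling. Spi1, which encodes PU.1, read 0.18, 0.11 and -0.70 and 1.32 and 0.71: the groups did not overlap, yet the difference of 1.15 ± 0.72 (SE), adjusted p = 0.217, did not pass. Myb, a factor of cycling progenitors, was 0.88 higher, and Runx1 was not called at -0.39. Among the 4 lower members were Egr2, Nab2, which binds EGR proteins, at -1.88 and the ETS factor Etv3.

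Of 25 cytokine receptors, 12 were higher and 7 lower in GMP, beside 32.5% and 19.1% of named genes. Their median was 0.45, or -0.04 when scaled over detected probes. The counts were 7 and 8 after quantile normalization, 6 and 10 over detected probes and 1 and 5 under spike-in scaling. Csf1r, the macrophage colony-stimulating factor receptor, read 3.61, 3.85 and 3.70 on the LSK arrays and 6.44 and 6.37 on the GMP arrays (2.68 ± 0.30 (SE), adjusted p = 4.45e-06), and its 3 probes ranged from 1.35 to 2.97. The GM-CSF receptor chains Csf2ra and Csf2rb rose by 1.54 and 1.65, the interferon γ receptor chains Ifngr1 and Ifngr2 by 1.81 and 1.21, and the interleukin-6 receptor Il6ra by 1.43. Csf3r, the granulocyte colony-stimulating factor receptor, was 7.20, 6.59 and 6.97 in LSK and 7.24 and 7.24 in GMP and did not pass (adjusted p = 0.236). The interleukin receptor chains Il1r1, Il18r1 and Il27ra fell by 3.61, 3.40 and 3.10, and Il2rg, the common γ chain of lymphoid cytokines, by 1.93.

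Primary granule genes, whose products fill the first granules that neutrophil precursors make, had the highest list median, 2.06. Of 15 tested, 13 were higher in GMP and none lower. Elane, neutrophil elastase, read 5.59, 4.99 and 5.44 on the LSK arrays and 9.37 and 8.96 on the GMP arrays (3.82 ± 0.37 (SE), adjusted p = 1.2e-06). Prtn3, proteinase 3, read 4.40, 4.47 and 4.18 in LSK and 8.33 and 8.01 in GMP, a difference of 3.82 ± 0.42 (SE). Ctsg, the third of these serine proteases, differed by 3.25 ± 0.31. All GMP arrays lay above all LSK arrays for the 3 proteases.

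Mpo, myeloperoxidase, was bright in both populations, 8.10, 8.50 and 8.05 in LSK and 10.22 and 10.33 in GMP (2.06 ± 0.39 (SE), adjusted p = 0.000588). Ms4a3, a membrane protein of GMP, rose most within the list, from 3.66, 3.62 and 3.69 to 7.99 and 7.77. Prss57, a further serine protease, Cst7, cystatin F, and Hp, haptoglobin, rose by 3.11, 3.10 and 2.91. The lysozyme genes Lyz1 and Lyz2 were not called, at 0.16 and 0.17, and as near-identical copies they may share probe signal. Under spike-in scaling 8 were called higher, with a median of 1.68.

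The stretches just upstream of the elastase and proteinase 3 starts are shown because these neighbouring protease genes rose together. In RefSeq's GRCm38.p6 promoter table, a PU.1 core, GAGGAA on either strand, lay within 250 bases upstream of 7 of 13 primary granule genes (53.8%) and of 6986 of 27025 genes in all (25.9%); it is in capitals. The motifs in this and the later searches, 10 in all, were picked after the values were seen, and a match describes letters only.
Elane (chr10:79886062-79886311, plus strand): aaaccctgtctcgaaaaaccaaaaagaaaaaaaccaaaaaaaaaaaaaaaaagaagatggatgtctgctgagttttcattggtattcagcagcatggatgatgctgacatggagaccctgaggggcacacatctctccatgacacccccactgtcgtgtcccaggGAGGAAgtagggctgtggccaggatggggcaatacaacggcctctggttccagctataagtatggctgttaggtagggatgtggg
Prtn3 (chr10:79879417-79879666, plus strand): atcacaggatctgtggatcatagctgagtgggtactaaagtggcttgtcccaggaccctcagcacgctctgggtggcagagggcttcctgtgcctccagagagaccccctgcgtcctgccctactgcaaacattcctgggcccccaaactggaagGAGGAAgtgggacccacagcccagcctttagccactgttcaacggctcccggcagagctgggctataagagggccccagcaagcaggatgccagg
The 6 tested genes with this core, among them Mpo, Elane, Prtn3 and Ctsg, were all called higher (median 2.65), and 4 of 6 without it were called higher (median 1.55). For a C/EBP half-site pair, TTNNGNAA, the shares were 46.2% and 40.3%. The PU.1 core was not particular to primary granule genes. Its share was 56.7% for secondary and tertiary granule genes and 56.2% for BCL2 family genes, lists whose medians were near 0. It was 47.1% for megakaryocyte and platelet genes, which fell, and 18.4% for cell cycle genes, which rose.

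Secondary and tertiary granule genes, which neutrophils switch on after the GMP stage, did not separate GMP from LSK cells. Of 30 tested, 7 were higher and 7 lower, beside 32.5% and 19.1% of named genes. Their median of 0.03 ranged from -0.46 to 0.16 under other scalings. Leaving out either GMP array gave 5 higher and 4 lower. Ltf, lactoferrin, read 6.48, 6.21 and 6.13 on the LSK arrays and 5.50 and 5.97 on the GMP arrays, with the groups apart and LSK above GMP, but did not pass (-0.54 ± 0.44 (SE), adjusted p = 0.35). Camp, cathelicidin, and Lcn2, lipocalin 2, differed by 0.35 and -0.45, and neither was called. Mmp9 and Mmp8, the granule metalloproteases, were lower in GMP by 1.56 and 1.37, and the formyl peptide receptors Fpr1 and Fpr2 by 1.51 and 1.11. Slpi, a protease inhibitor, Fcnb, ficolin B, and Ltb4r1, the leukotriene B4 receptor, rose by 3.26, 2.40 and 2.17.

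These genes of mature neutrophils were measured in the LSK samples at levels near those of GMP. The median over members was 2.74 in LSK, 0.64 in CMP, 3.19 in GMP and 7.27 in granulocytes, and the summed level of the list ran from 10.63 to 10.84 on the LSK arrays and was 10.93 and 11.30 on the GMP arrays. Ltf averaged 2.78 in CMP, 2.96 below GMP (adjusted p = 0.000173). On every LSK array 29 of the 30 members were well above background, and the part of more mature cells in the granule and innate gene comparisons was not tested.

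**Figure D3:**
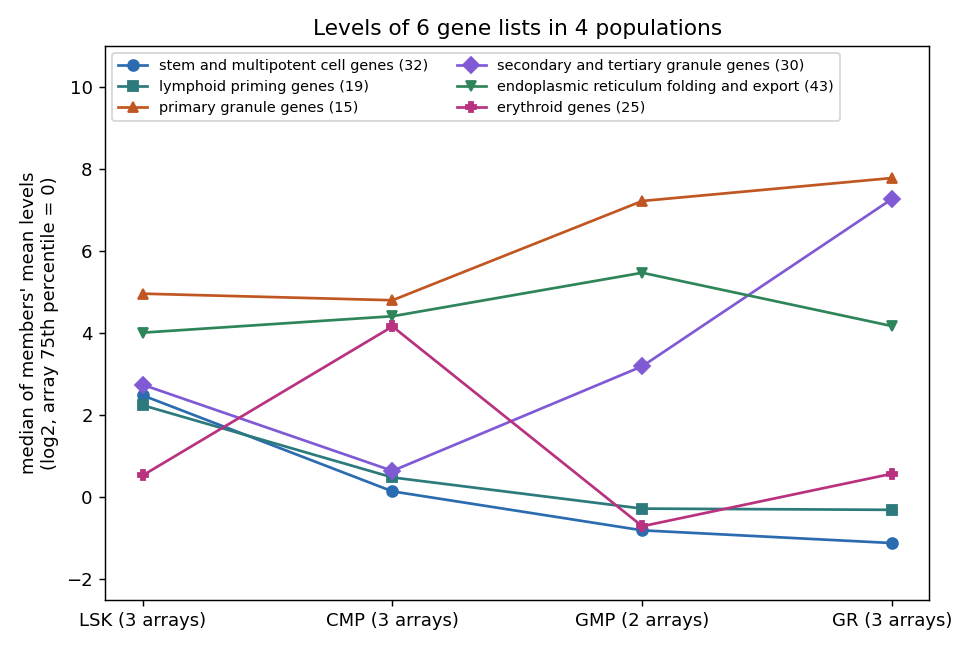
Median over the members of 6 gene lists of their mean level in LSK cells, CMP, GMP and granulocytes (GR), log2 with the array's 75th percentile at 0. Numbers in brackets are members tested, and no error bars are drawn. Medians cover all members on the array, 16 primary granule genes (15 tested) and 27 erythroid genes (25 tested). Stem and lymphoid lists step down from LSK to GMP, primary granule genes rise from 4.96 to 7.22, and secondary granule genes stand at 2.74 in LSK, 0.64 in CMP and 3.19 in GMP.

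Eosinophil, basophil and mast cell genes were mostly higher in GMP, with 12 of 21 higher, 3 lower and a median of 1.12. Hdc, which makes histamine, read 3.12, 2.76 and 2.71 in LSK and 5.89 and 5.81 in GMP (2.99 ± 0.39 (SE), adjusted p = 2.14e-05). The eosinophil granule proteins Epx, the peroxidase, and Prg2, major basic protein, rose by 2.92 and 2.52. Cpa3, a mast cell carboxypeptidase, rose by 1.42. The eosinophil ribonuclease genes Ear1, Ear2, Ear6 and Ear10 rose by 1.12 to 1.88, although these near-identical copies may share probe signal. Ccr3, the eotaxin receptor, and Il4 were lower by 1.67 and 1.49, Ccr3 being above background on 1 of 2 GMP arrays.

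Of 22 monocyte, macrophage and dendritic cell genes 12 were higher and 4 lower (median 0.85); without GMP replicate 2 it was 10 and 2. F13a1, coagulation factor XIII A of monocytes, read 3.02, 3.03 and 2.74 on the LSK arrays and 6.90 and 6.98 on the GMP arrays, a difference of 4.01 ± 0.30 (SE), adjusted p = 1.15e-07. Ly6c1, Vcam1 and Adgre1, which encodes F4/80, rose by 2.83, 2.47 and 2.24. The complement genes C1qa, C1qb and C1qc of mature macrophages were lower in GMP instead, by 2.11, 0.79 and 2.19, as was Itgax, the integrin CD11c, by 1.84. C1qa and C1qc were above background on 1 of 2 GMP arrays. Siglech, of plasmacytoid dendritic cells, was called higher at 0.37, but its other probe gave -2.59.

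All 7 genes of the phagocyte NADPH oxidase and its RAC partners were higher in GMP, by 0.72 to 1.38. Cybb, the catalytic gp91 subunit, read -0.31, -0.56 and -0.73 in LSK and 0.67 and 0.90 in GMP (1.31 ± 0.40 (SE), adjusted p = 0.0153), and lost its call without either GMP array. Ncf1 and Ncf4, cytosolic subunits, rose by 1.38 and 1.32. Quantile normalization called 2 of the 7 and spike-in scaling none, with the median at 0.62 and 0.86.

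Among innate sensing receptors 10 of 24 were higher and 1 lower (median 0.52, or 0.03 over detected probes), beside 32.5% and 19.1% of named genes. Ly86, which pairs with the receptor RP105, rose by 3.73 ± 0.29 (SE) and Tlr1, a receptor for bacterial lipopeptides, by 3.64 ± 0.28. Clec12a, an inhibitory C-type lectin, was at least 7.52-fold higher in GMP. The adaptor genes Fcer1g and Tyrobp rose by 1.90 and 1.88, Cd14 by 1.72 and Trem3 by 3.31. Tlr2 and Tlr4 were not called, at 0.57 and 0.76. Nod2, a sensor of bacterial cell walls, was at least 3.11-fold higher in LSK.

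Genes for folding and export of proteins in the endoplasmic reticulum, which secretory cells use heavily, rose together. Of 43 tested, 39 were higher in GMP and 2 lower (median 1.60). Hspa5, the chaperone BiP, read 6.70, 6.34 and 6.15 on the LSK arrays and 7.76 and 7.70 on the GMP arrays (1.33 ± 0.14 (SE), adjusted p = 3.1e-06). Sdf2l1, a cofactor of BiP, rose most, from 1.87, 1.29 and 1.45 in LSK to 4.62 and 4.29 in GMP. P4hb, protein disulfide isomerase, rose by 2.29 ± 0.18 (SE), Hyou1, another chaperone, by 2.23 ± 0.24 and Kdelr2, which retrieves escaped chaperones, by 2.14 ± 0.18. For each of these genes every GMP array lay above every LSK array.

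The translocation and glycosylation machinery rose by a similar step: the translocon subunits Sec61a1, Sec61b and Sec61g by 1.45, 1.73 and 1.68, and the oligosaccharyltransferase subunits Rpn1, Rpn2 and Ddost by 1.93, 1.66 and 1.69. Xbp1, the transcription factor of the unfolded protein response, rose by 1.43 ± 0.18 (SE). The 2 lower genes were Ddit3, the stress factor CHOP, at -1.12 and Dnajb9, an XBP1-induced cochaperone, at -0.65. Atf4, the translation stress factor, was not called at 0.08. Spike-in scaling called 7 of 43 higher, with a median of 1.22 against -0.16 over all features, and quantile normalization 36.

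The endoplasmic reticulum stress element, CCAAT and CCACG spaced by 9 bases on either strand, is the site by which ATF6 and XBP1 are known to act on chaperone genes. It lay within 250 bases upstream of 7 of 33 of these genes with a RefSeq promoter (21.2%) and of 35 of 27025 genes in all (0.13%). The 7 stretches are shown with the element in capitals, read 5′ to 3′ along the gene's strand in GRCm38.p6, so that capitals beginning CGTGG are its reverse complement.
Hspa5 (chr2:34772013-34772055, plus strand): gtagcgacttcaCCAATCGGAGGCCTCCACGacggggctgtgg
Hsp90b1 (chr10:86705521-86705668, minus strand): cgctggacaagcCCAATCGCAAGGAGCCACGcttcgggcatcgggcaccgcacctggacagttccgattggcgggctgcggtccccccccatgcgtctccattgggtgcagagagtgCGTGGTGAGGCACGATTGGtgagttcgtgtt
Calr (chr8:84847063-84847105, minus strand): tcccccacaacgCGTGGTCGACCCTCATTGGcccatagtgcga
Pdia6 (chr12:17266479-17266521, plus strand): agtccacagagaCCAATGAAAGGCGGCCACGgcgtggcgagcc
Canx (chr11:50325788-50325830, minus strand): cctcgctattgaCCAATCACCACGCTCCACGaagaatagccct
Dnajc3 (chr14:118937815-118937857, plus strand): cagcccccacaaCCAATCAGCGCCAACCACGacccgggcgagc
Creld2 (chr15:88819508-88819550, plus strand): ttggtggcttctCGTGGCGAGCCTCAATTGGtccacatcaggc
All 7 were called higher, by 1.14 to 2.04 (median 1.71). Of the 26 without the element 22 were higher and 2 lower (median 1.59). Sdf2l1 and P4hb, the members that rose most, were among those without it.

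**Figure D4:**
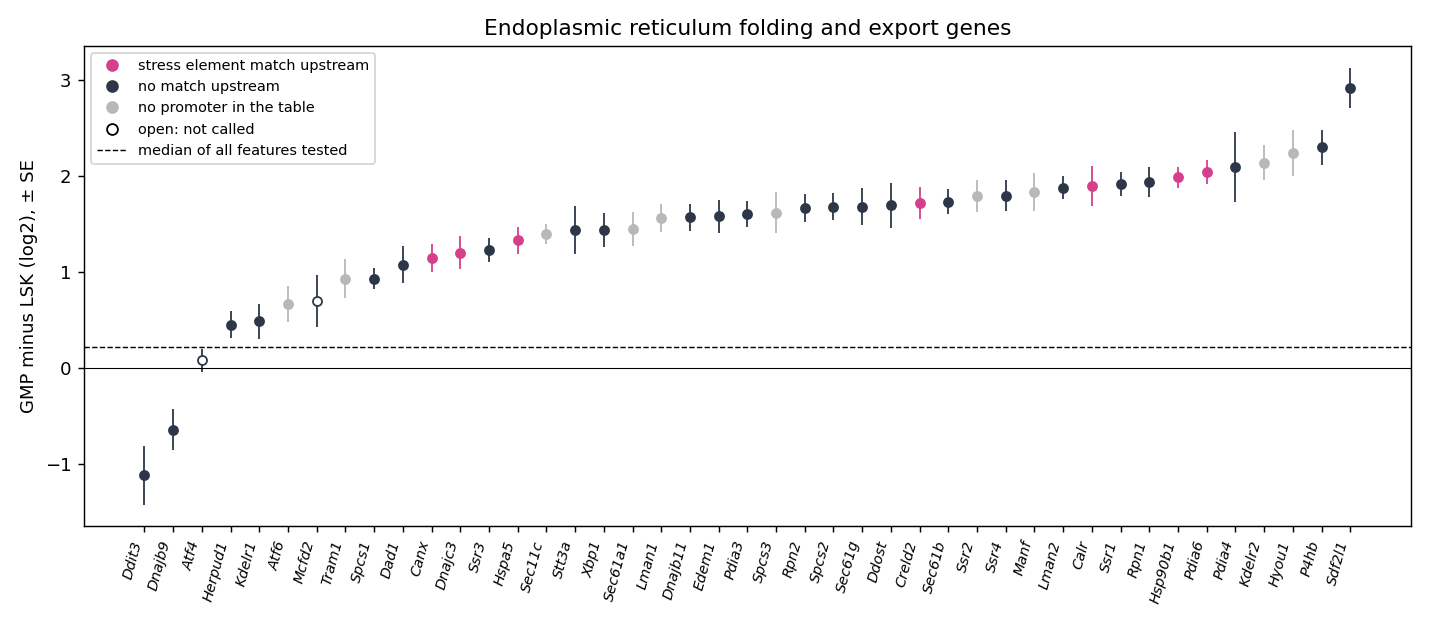
GMP minus LSK difference (log2, ± SE) of the 43 endoplasmic reticulum folding and export genes, ordered by size; pink marks a stress element upstream, dark no match, grey no promoter in the table, open circles genes not called, and the dashed line the median of all features tested, 0.22. All but Ddit3, Dnajb9, Atf4 and Mcfd2 were called higher.

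Of 33 lysosomal genes 19 were higher and 1 lower (median 0.76). The cathepsins Ctsh and Ctsz rose by 2.38 and 2.23, Hexa, a hexosaminidase subunit, by 2.08 and Neu1, a sialidase, by 1.93. Lamp1, a membrane glycoprotein of the lysosome, rose by 1.66 ± 0.13 (SE), with both GMP arrays above every LSK array. Ctsd and Ctss, cathepsins D and S, were not called, at 0.43 and 0.21. Spike-in scaling called 3 of the 33 higher.

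Cell cycle genes were higher in GMP for 42 of 49 tested and lower for 1 (median 1.11). Mki67, the proliferation antigen Ki-67, read 4.83, 5.16 and 5.24 on the LSK arrays and 6.43 and 6.39 on the GMP arrays (1.33 ± 0.13 (SE), adjusted p = 1.41e-06). Mybl2, a factor of cycling cells, rose most among the called members, from 3.20, 3.36 and 2.99 in LSK to 5.48 and 4.99 in GMP. Rrm2, a ribonucleotide reductase subunit, rose by 1.91 ± 0.12 (SE), Plk1, a mitotic kinase, by 1.79 ± 0.19 and the cyclins Ccnb1 and Ccne1 by 1.70 ± 0.21 and 1.68 ± 0.17. The replication helicase genes Mcm2 to Mcm7 rose by 0.73 to 1.03, and the groups did not overlap for any of them. Ccnd1, cyclin D1, was the lower gene at -0.86, and Ccnd2 was not called. Under spike-in scaling 1 member was called, with a median of 0.73 against -0.16 over all features.

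Cell cycle inhibitors and quiescence genes went the other way, with 8 of 14 lower, 3 higher and a median of -0.71. Cdkn1c, the inhibitor p57 of resting stem cells, read 1.30, 1.18 and 1.22 on the LSK arrays and -3.77 and -3.09 on the GMP arrays (-4.67 ± 0.36 (SE), adjusted p = 1.46e-07). Both GMP arrays were far below the LSK arrays, which differed little among themselves. Cdkn1a, p21, read 2.84, 1.48 and 0.80 in LSK, highest in replicate 1, and -0.35 and -0.93 in GMP (-2.35 ± 0.46 (SE), adjusted p = 0.000791). Txnip, a metabolic brake, fell by 2.05 and Foxo1, a quiescence factor, by 1.88, while Cdkn1b, p27, fell by 0.66. Cdkn2c, Rb1 and Rbl1 rose by 1.20, 0.66 and 0.50.

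All 42 genes of oxidative phosphorylation were higher in GMP, by 0.62 to 1.82 (median 1.03). Cycs, cytochrome c, read 5.19, 4.92 and 5.02 in LSK and 6.92 and 6.81 in GMP (1.82 ± 0.11 (SE), adjusted p = 1.46e-08), but its 3 probes ranged from 0.15 to 1.82. Uqcrq of complex III, Atp5g1 of the ATP synthase and Cox7a2 of complex IV rose by 1.59, 1.58 and 1.52. The smallest rise was that of Atp5d at 0.62. These steps are near the shift between scalings: quantile normalization called 26 of the 42 and spike-in scaling none, with medians of 0.43 and 0.65 against 0.08 and -0.16 over all features.

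Of 37 ribosome biogenesis genes 29 were higher and none lower (median 0.84). Bysl, Nolc1, Rrp12 and Nhp2, which act in ribosome assembly or in its small nucleolar RNA particles, rose by 1.33, 1.27, 1.26 and 1.22. The other Nolc1 probe gave 0.56. Ncl and Nip7 were called higher, at 0.77 and 0.76, but their other probes gave -0.04 and -0.49. Npm1, nucleophosmin, and Fbl, fibrillarin, rose by 0.75 and 0.85. Quantile normalization called 10 and spike-in scaling none. Myc, the transcription factor known to drive these genes, was not called at 0.21 (adjusted p = 0.787), and its relative Mycn read 2.28, 2.85 and 2.91 in LSK and -3.38 and -2.70 in GMP (-5.72 ± 0.26 (SE), adjusted p = 8.92e-10).

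Of 20 cholesterol synthesis genes 4 were higher and 5 lower (median -0.13), beside 32.5% and 19.1% of named genes. Over detected probes 1 was higher and 11 lower, under spike-in scaling none and 1, and with one array left out 2 to 4 and 3 to 4. Fdps, farnesyl diphosphate synthase, rose by 1.89 ± 0.20 (SE), while Srebf2, the transcription factor of the pathway, fell by 1.30 and Cyp51, a sterol demethylase, by 0.79.

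Antigen presentation and interferon-induced genes were lower in GMP for 21 of 28 tested and higher for none (median -1.49). Rsad2, the antiviral protein viperin, read 0.76, 0.66 and 0.71 on the LSK arrays and -2.71 and -3.16 on the GMP arrays (-3.64 ± 0.16 (SE), adjusted p = 3.87e-10). Ifi44 was at least 51.8-fold, Ifit1 at least 9.26-fold and Ifit3 at least 7.11-fold higher in LSK. Isg15, a ubiquitin-like modifier, read 3.64, 3.18 and 3.47 in LSK and 1.05 and 0.85 in GMP, and Irf7, the interferon response factor, 0.51, 0.58 and 0.19 and -2.41 and -3.08. The MHC class II genes H2-Eb1, H2-Aa and H2-Ab1 and their chaperone Cd74 fell by 3.33, 3.02, 1.60 and 2.93. Class I genes fell by less, H2-K1 by 0.68 and B2m by 0.48, and H2-D1 was not called at -0.24.

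The interferon-stimulated response element is shown for 4 of these genes because the element is the known site of the interferon factor ISGF3. Searched as GAAA repeated after 2 bases on either strand, where overlapping matches run together, it lay within 250 bases upstream of 8 of 21 genes of the list with a RefSeq promoter (38.1%) and of 936 of 27025 genes in all (3.46%). Matches are in capitals, and TTTC marks the reverse complement.
Ifit1 (chr19:34640773-34640825, plus strand): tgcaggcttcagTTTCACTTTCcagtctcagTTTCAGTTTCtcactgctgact
Isg15 (chr4:156200863-156200908, minus strand): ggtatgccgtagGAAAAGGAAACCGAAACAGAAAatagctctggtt
Rsad2 (chr12:26456551-26456584, minus strand): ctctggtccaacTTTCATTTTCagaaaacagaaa
Gbp2 (chr3:142620592-142620625, plus strand): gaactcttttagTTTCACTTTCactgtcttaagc
Of the 8 genes with the element 7 were called lower in GMP (median -2.44), all but Bst2 at -0.07. Of the 13 without it 8 were called lower (median -1.23), among them Ifi44. Matches not shown are those of Ifit3 at -3.45, Oas1a at -1.05, B2m at -0.48 and Bst2. The element was not particular to this list. Its share was 2 of 3 for NADPH oxidase genes and 14.3% for innate sensing receptors, lists with positive medians. It was 20.0% for B cell markers and 11.8% for megakaryocyte and platelet genes, lists with negative medians.

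Of 27 Notch, Wnt and TGF-β pathway genes GMP were lower for 15 and higher for 3 (median -1.19, or -0.85 with 5 genes at their bound). The median was -0.43 after normexp correction and -0.38 on the authors' values. The Notch ligand Jag2 was at least 16.5-fold and the Notch targets Hes1 and Hey1 at least 2.58-fold and 3.29-fold higher in LSK. Hey1 read -0.54, -3.01 and -3.33 on the LSK arrays, far higher in replicate 1, and neither Hes1 nor Hey1 was called on the authors' values. Fzd6, a Wnt receptor, read -0.53, -0.24 and -0.13 in LSK and -3.25 and -3.47 in GMP (-3.06 ± 0.28 (SE), adjusted p = 7.38e-07). The TGF-β receptors Tgfbr2 and Tgfbr3 fell by 2.13 and 2.71, the inhibitory SMAD gene Smad7 by 2.19 and Eng, endoglin, by 1.68. Ctnnb1, which encodes β-catenin, was level at 0.10.

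Chromatin regulators and BCL2 family genes had medians of 0.09 and 0.01 that turned negative after quantile normalization, over detected probes and under spike-in scaling. Among 22 chromatin regulators 8 were higher and 6 lower, shares near those of named genes in general, and without either GMP array 4 were higher. Quantile normalization called 1 higher and 8 lower, the percentile over detected probes none and 10, and spike-in scaling none and 3. The Polycomb genes Cbx2 and Phc1 fell by 1.92 and 1.80 while Ezh2 and Suz12 rose by 0.66 and 0.76, and Tet1 fell by 1.38 where Tet2 rose by 1.44, a call lost whichever array was left out. Of 14 BCL2 family genes 4 were higher and 4 lower, beside 32.5% and 19.1% of named genes. Bid, Bak1, Bax and Bad, which promote cell death, rose by 1.62, 1.37, 1.23 and 0.92. Bok and Bbc3, which encodes PUMA, fell by 3.43 and 2.05, and Mcl1, a survival factor, by 0.81.

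Markers of other cell types moved between the populations. Of 15 T and NK cell markers tested 9 were lower in GMP and 1, Nkg7, was higher, by 2.19. Their median was -2.30 (-1.22 with 3 genes at their bound), and -0.67 after normexp correction. Lck, a T cell kinase, read 4.24, 4.36 and 4.04 in LSK and -0.01 and 0.02 in GMP, and Cd3g was at least 5.11-fold higher in LSK. Of 12 B cell markers 7 were lower and none higher, with a median of -1.21 (-0.29 with 5 genes at their bound) that was 0.01 after normexp correction. On the authors' values 1 of the 12 was lower. With signal required on every GMP and LSK array 5 could be tested, 1 was lower and the median was 0.5. Pax5, the B cell identity factor, was not well above background on either GMP array and dim in LSK. Of 9 endothelial and stromal markers 5 were lower and 1, Flt1, was higher, by 3.13. Their median was -1.35 (-0.99 with 1 gene at its bound), and -0.22 after normexp correction. Cdh5, Col1a1 and Col3a1 were on the array and could not be tested. The summed level of the B cell list was 3.74 to 3.92 on the LSK arrays and 4.13 to 4.31 on the GMP arrays, that of the T and NK cell list 5.96 to 6.22 and 7.09 to 7.63, and that of the endothelial list 3.47 to 4.06 and 3.83 to 4.55. The sums of the B cell and of the T and NK cell lists were thus higher on both GMP arrays than on any LSK array, against the sign of the list medians. Such sums are carried mostly by the brightest members. Sums and median levels cover all members on the array, tested or not: 14 B cell, 18 T and NK cell and 14 endothelial and stromal markers. The median level was -3.57 in LSK and -4.29 in GMP for B cell markers, and -0.52 and -2.85 for T and NK cell markers. The part of such cells in the lymphoid differences was not tested.

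**Figure D5:**
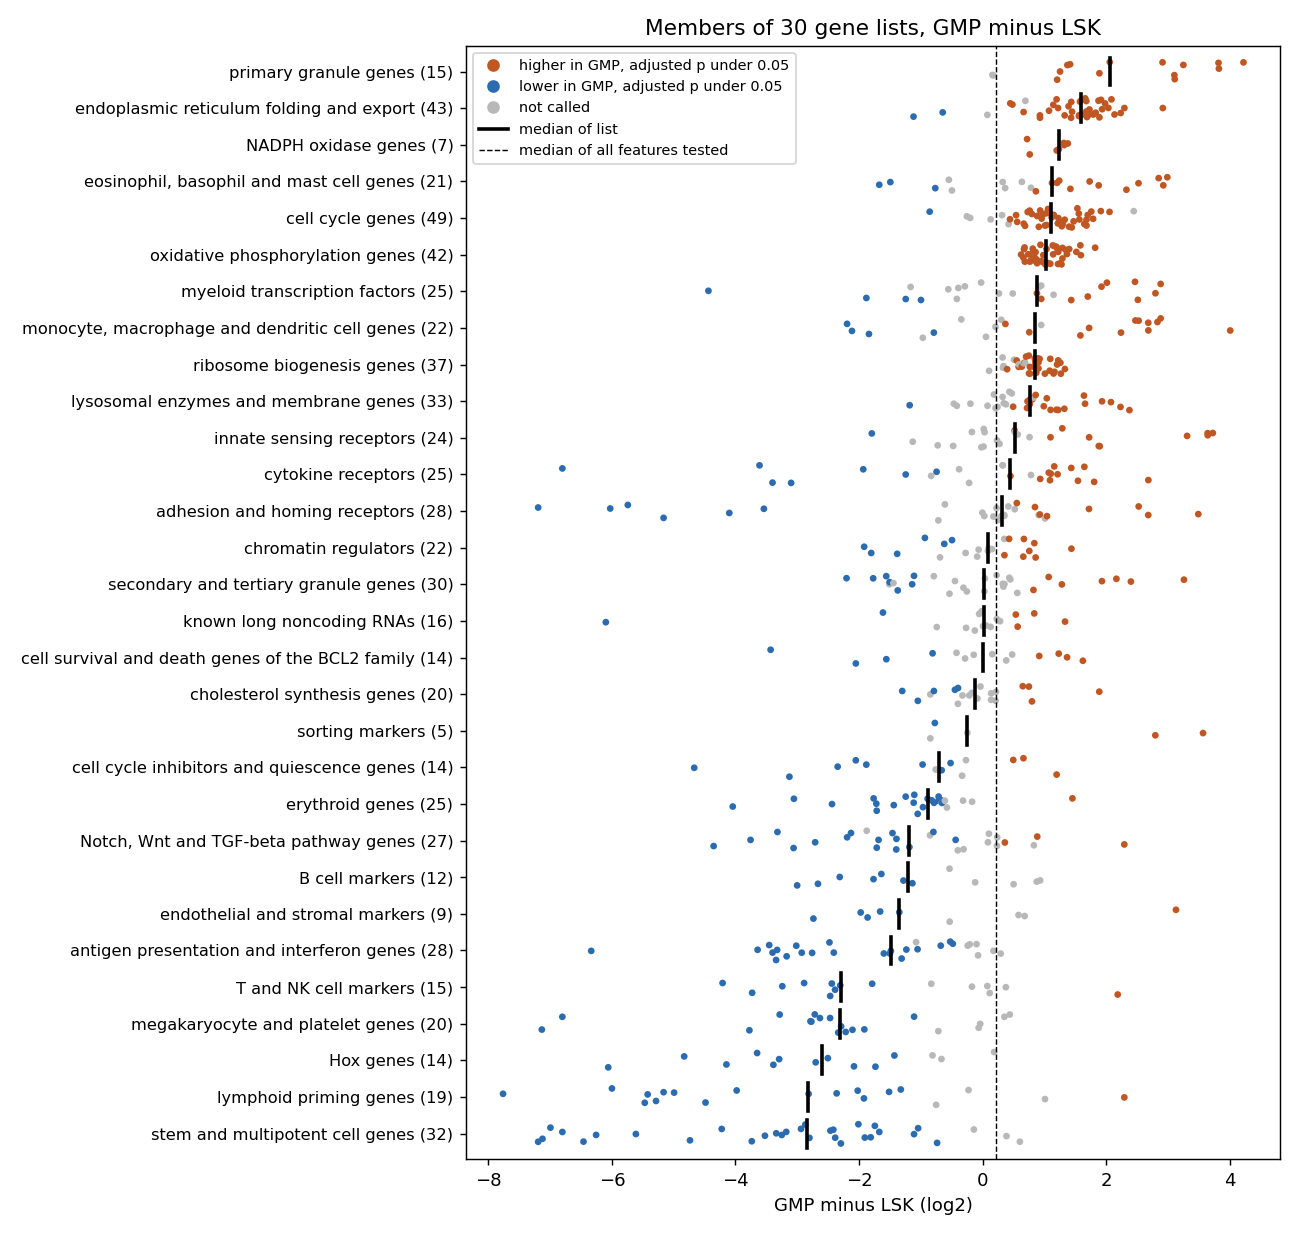
GMP minus LSK difference (log2, x axis) of each tested member of 30 gene lists, with the number tested in brackets, the list median as a bar and the median of all features, 0.22, as a dashed line; colours mark calls. Medians run from -2.84 for stem and multipotent cell genes to 2.06 for primary granule genes; those of the B cell, adhesion, BCL2, chromatin, cytokine receptor, long noncoding RNA and secondary granule lists changed sign under another scaling.

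Most of the largest rises over all genes were in genes outside the lists. Tctex1d1, of the dynein light chain family, read -2.87, -2.95 and -3.11 on the LSK arrays and 2.20 and 2.28 on the GMP arrays (5.22 ± 0.42 (SE), adjusted p = 2.02e-07). Dmkn, dermokine, rose by 4.63 ± 0.40 (SE), Mefv, the inflammasome protein pyrin, by 4.51 ± 0.31 and Olr1, a scavenger receptor for oxidised LDL, by 4.26 ± 0.40. Nrg1, a neuregulin ligand of ERBB receptors, rose by 4.38 ± 0.44, Apba1, an adaptor of the amyloid precursor protein, by 4.33 ± 0.37, Gpx3, a secreted glutathione peroxidase, by 4.09 ± 0.33 and Tifab, a TIFA-binding protein, by 4.08 ± 0.37. Each lay higher on both GMP arrays than on any LSK array.

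Where LSK arrays held no probe well above background, Abcc2, an organic anion transporter, was at least 8.12-fold higher in GMP, Sowahd at least 7.82-fold, Scamp5, a vesicle membrane protein, at least 7.19-fold and Ccl24, the chemokine eotaxin 2, at least 7.12-fold. Gm4788 was at least 9.93-fold higher, with -0.90 and -3.11 in GMP and an adjusted p of 0.0034 that rose to 0.0591 without GMP replicate 1. On the authors' values, raised to the common floor, Gm4788, Clec12a, Scamp5 and Ccl24 were not called. On the other side, Emp1, an epithelial membrane protein, was at least 114-fold higher in LSK, Gas6, the ligand of the AXL family of receptors, at least 103-fold, Wfdc18 at least 77.8-fold, Tmem121 at least 77.7-fold and the homeobox gene Nkx2-3 at least 70.2-fold. Slc16a11, of the monocarboxylate transporter family, fell from 4.19, 3.88 and 4.35 in LSK to -2.53 and -3.60 in GMP, and the GTPase genes Gimap6 and Gimap8 by 6.29 and 5.99.

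CMP stand between the populations in the usual scheme. The GMP against CMP difference called 4104 of 22810 features (18%), 2168 higher and 1936 lower, and under spike-in scaling 1687, 260 higher and 1427 lower. CMP against LSK called 8877 of 24177 (36.7%). These comparisons share the GMP or the LSK arrays with the main one, so their values are given side by side. Irf8 lay 2.70 above LSK already in CMP, and Mpo 0.99; GMP did not pass against CMP for either, at 0.18 (adjusted p = 0.727) and 1.07 (0.077). Elane, by contrast, lay 0.55 above LSK in CMP and 3.27 higher in GMP than in CMP (adjusted p = 1.26e-05), and Cebpe -1.23 and 4.02 (4.72e-06). On the falling side Hlf was -4.11 in CMP against LSK with GMP not called against CMP, while Flt3 went -1.46 and a further -3.82 (adjusted p = 1.1e-06).

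Across all 7 populations, 514 features (1.34% of 38391) were highest in GMP and 874 (2.28%) highest in LSK in every pairwise test, while 254 (0.662%) were lowest in GMP and 417 (1.09%) lowest in LSK. Without GMP replicate 1 the first count was 295. Under spike-in scaling only 26 were highest and 60 lowest in GMP, and 315 highest and 2 lowest in LSK. With signal required on every GMP and LSK array, 151 were highest in LSK. The 5 erythroblast arrays were dimmer, with a 75th percentile of 49.99 to 80.94 intensity units against 265.6 to 605.9 on the other arrays. Their levels are set by that percentile, and the tests against erythroblasts enter each of these counts. How far the counts depend on this was not tested. Slc36a2, an amino acid transporter, averaged 0.26 in GMP, and the next population, granulocytes, -2.90. Papss2, which makes the sulfate donor of the cell, averaged 4.35 in GMP against 1.89 in granulocytes, and read 0.43, 0.41 and 0.29 in LSK. For LSK, Sgsm1 stood 4.44, Wfdc18 4.40 and Nkx2-3 and Procr each 4.21 log2 units above the next population, the megakaryocyte erythroid progenitors, in which the probe of each was well above background on all 3 arrays.

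Custom noncoding transcripts moved in both directions. The array carries 1317 of them in 4 sets, of which 930 were tested and 313 called (33.7%), 166 higher and 147 lower, beside 51.6% of the named genes tested. The sets hold pseudogenes, transcripts overlapping small RNAs and 2 classes of long noncoding RNA, and the sources used here do not say which set is which. In set 1, 61 of 134 tested were higher and 7 lower; in set 3, 31 of 291 were higher and 60 lower. TCONS_00168307 read -2.94, -2.74 and -2.98 on the LSK arrays and 1.95 and 1.70 on the GMP arrays (4.71 ± 0.33 (SE), adjusted p = 4.83e-08), TCONS_00464357 -3.02, -3.15 and -2.92 and 1.67 and 1.55, and TCONS_00361543 3.35, 3.29 and 3.33 and -2.55 and -3.07 (-6.14 ± 0.78 (SE), adjusted p = 1.72e-05). Each of these has 3 probes, and those of the first ranged from 4.53 to 4.78, of the second from 4.64 to 4.77 and of the third from -6.14 to -5.88. Of 299 called custom transcripts with several measured probes, 296 had all of them in one direction, against 90.9% of 1988 called genes.

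Among catalogue noncoding RNAs, Meg3 read 0.52, -0.24 and 0.13 on the LSK arrays and -5.73 and -6.19 on the GMP arrays (-6.10 ± 0.53 (SE), adjusted p = 4.72e-07). The Meg3 probe read was not well above background on either GMP array, although another was on 1 of them, so the size of its fall is uncertain. Mirg, from the same imprinted cluster, fell by 1.61, a call lost without GMP replicate 2, and was above background on 1 of 2 GMP arrays. Snhg3, a small nucleolar RNA host, rose by 1.33 and Kcnq1ot1, an imprinted antisense transcript, by 0.84, both lost under spike-in scaling. Malat1 and Neat1, abundant nuclear RNAs, were not called at -0.27 and -0.06. Of 2929 intergenic regions tested 608 (20.8%) were called. The regions chr6:40693617-40720167 and chr6:40699474-40719122 on the forward strand, which overlap, rose by 4.05 ± 0.68 and 4.03 ± 0.35 (SE). The region chr10:83185606-83225506 on the forward strand fell by 4.30, and a pair of overlapping reverse-strand regions on chr13, 28551902-28975446 and 28700385-28760363, by 4.16 and 4.16. These positions are those of the mm9 array design, and the genes near them were not looked up.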

How the data were processed

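RNA of sorted mouse bone marrow cells was hybridised singly to custom Agilent arrays. The intensity values were made by the authors as background-subtracted processed signals in Feature Extraction version 11.5.1.1 under protocol GE1_1105_Oct12 with an mm9 design, per the file headers. The labels name Cy5, and the deposited columns are those of the green channel. The levels here are log2 of the processed signals deposited by the authors, minus each array's 75th percentile over non-control spots. A gene was read from its brightest probe. Features well above background on every array of either population were tested with limma 3.58.1 (R 4.3.3): cell-type means were fitted over all 19 arrays with eBayes, and p-values were adjusted by Benjamini-Hochberg over all tested features at 0.05. A call also required the higher population to be well above background on all its arrays. The number of arrays limits the precision.

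A gene with no probe above background in one population has a bound ("at least"), against the higher of that array's lowest well-measured signal and the probe's own. Named genes were the 12 largest differences in each direction among called genes measured above background on all 5 arrays whose groups do not overlap, the 6 largest bounds in each direction, the 3 largest custom and the 3 largest intergenic features in each direction, up to 4 called members of each list, the sorting markers and a fixed set of factors. Other list members were named after their values were seen. Members and lists were chosen with earlier results of these data known. Normexp correction (offset 50) used the median foreground signal. The fit was tested on simulated data, with 50 features changed at each size, far fewer than were called here. It recovered 2% of changes of 0.5 log2 units, 42% of 1, 76% of 1.5 and 74% of 2, with 3 false calls. A gene that was not called can therefore still differ. Alternatives changed the scaling, background correction, filter, probe summary, arrays in the fit and block; a mean-variance trend in eBayes, and further settings for the counts against CMP and across populations, were added after seeing the data. Promoter sequences are RefSeq's, 555 of 725 list genes having one. The closing section gives the check of the replicate numbers. Some members of the lists are not reported here by name.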

Additional observations from a re-analysis of the deposited data

How the results depend on the processing

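The scaling between arrays moved the counts most. Spike-in scaling, from 6 spike-in probes, called 2913 features in place of 10375, 459 higher and 2454 lower, with 201 list members in place of 489 and 113 custom transcripts in place of 313 (27 higher, 86 lower). The percentile over detected probes called 2600 higher and 6867 lower (custom 61 and 276), and quantile normalization 3702 higher. Requiring signal in both populations left 2313 lower (custom 77), by construction. Normexp correction called 253 custom transcripts higher in place of 166 and turned Rhag to 0.02 (0.0238). Spike-in scaling called 1687 features between GMP and CMP in place of 4104, 26 highest and 60 lowest in GMP, and 315 highest and 2 lowest in LSK; it was applied to these counts after seeing the data. Features highest in GMP numbered 243 by quantile normalization, 225 over detected probes, 335 with no filter on dim probes and 297 with slide as a block, in place of 514, and 295 to 510 with one replicate left out; those lowest in GMP were 492 over detected probes in place of 254, and 176 to 247 with one replicate left out. Highest in LSK were 1312 over detected probes and 151 with signal required in both populations, in place of 874, and lowest in LSK 277 by quantile normalization and 156 over detected probes in place of 417. Beyond the construction named, the cause was not tested. Without the 5 erythroblast arrays, 12055 features were called between GMP and LSK in place of 10375, 7633 higher and 4422 lower. Leaving out one array gave 8271 to 9895 calls; with a GMP array left out, the lone one is assumed to vary like the other groups. With the replicate number as a block 9987 features were called, and the same-numbered arrays' deviations correlated at 0.152 and -0.143, with the numbers of the titles. The descriptions call the same GMP arrays 2 and 3, and by those numbers, which also mark the shared slides, the correlations were 0.143 and 0.364. The deviations of the 2 GMP arrays from their mean are exact opposites, so each correlation recurs with its sign reversed. These values therefore cannot decide how arrays were paired, and no label says that a number marks a shared animal or day. With slide as a block 10855 were called, and 10366 of 10375 calls had the same sign within slide 1 and 10359 of 10368 within slide 3. The calls were made on these same arrays, so their signs were nearly fixed in advance and cannot check for slide effects. Of the 173 named genes and regions, 142 kept their side of the threshold and direction under spike-in scaling, 156 on the authors' values and 160 to 172 under the other fits that tested all of them.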
